A study of Mus musculus with 10 samples.

Results

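The fraction enriched for leptotene and zygotene spermatocytes was compared with the fraction enriched for spermatogonia, on the 4 arrays of these groups among the 10 arrays of the series. Of 18194 genes that could be read from a probe set naming a single gene, 12916 were measured, that is, lay above a signal floor in at least 1 of the 2 fractions. All cells came from testes of C57BL/6 males. The spermatogonia fraction was fraction 2 of a Percoll density gradient from 8-day-old mice, and the leptotene/zygotene fraction was fraction 5 from 12-day-old mice. Pachytene spermatocytes (fraction 8, day 15), whole testis (day 15) and a mix of somatic tissues (day 15) from the same strain supplied reference levels. The fractions are enriched by density and age, not sorted by a marker, so each still holds other testis cells. How many animals went into a preparation is not stated in the labels. The age of the mice, the gradient fraction and the cell stage differed together between the groups and cannot be told apart. Each group had 2 samples, the first hybridised to one Affymetrix array design and the second to its companion design with other probe sets. A gene was therefore read from 1 array per fraction (n = 1), and a difference is a description of these arrays with no p-value, except for the 100 probe sets placed on both designs.

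Germ cells of the juvenile testis move through spermatogenesis in a first wave, so that spermatogonia dominate the germ line in the first week after birth and meiotic cells appear afterwards. In leptotene the chromosomes condense onto protein axes and are cut by programmed DNA breaks, and in zygotene the recombinase DMC1 searches for the homologous chromosome while the synaptonemal complex starts to form between the paired axes. Retinoic acid, acting through Stra8 and its partner Meiosin, starts this program, and the transcription factor A-MYB and others later drive genes needed in pachytene and in sperm.

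The label of the leptotene/zygotene fraction was checked against 4 genes of this stage. Sycp1, whose protein bridges the paired axes in the synaptonemal complex, had a scaled signal of 263 in the spermatogonia fraction and 949 in leptotene/zygotene, a difference of 1.85 on the log2 scale. Dmc1, the meiotic recombinase, had 213 and 668 on its main probe set (log2 1.65) and 212 and 493 on another (log2 1.22). Meiob, which coats single-stranded DNA at meiotic breaks, had 57.4 and 277 on the second design, a 4.82-fold difference. All 4 genes were higher in the leptotene/zygotene fraction, and the first 3 were above the floor in the spermatogonia fraction as well. Ldhc, the lactate dehydrogenase of male germ cells, had 58.8, below the floor of 87.6, and 1855, at least 21.2-fold higher. Its other probe set went from 9.79 to 1246, and both therefore had no reading above the floor in spermatogonia. Whole testis read 1675 for Sycp1, 736 for Meiob and 16538 for Ldhc, above the leptotene/zygotene fraction. For Dmc1 it read 289 on the main probe set, below that fraction.

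Marker genes of other cells were present in both fractions. Signals summed over the first design's leptotene/zygotene markers (9 genes) were 2356 in the spermatogonia fraction and 7722 in leptotene/zygotene, and over 8 spermatogonial markers 6159 and 10099. Whole testis had 24418 for the former markers, of which Ldhc alone gave 16538, and 4806 for the latter. Ldhc read 1855 in leptotene/zygotene and 23494 in pachytene, so the former sum weighs later spermatocytes heavily. On the first design the fraction labelled spermatogonia thus held the lower summed spermatogonial signal of the pair. The largest rises in that sum were those of Stra8 (2081 and 3295) and Uchl1 (1215 and 2341). The spermatogonial markers read on the second design went both ways: Gfra1 had 172 and 168, Etv5 391 and 259, Sohlh1 473 and 671, and Sohlh2 218 and 419. Sertoli markers (10 genes) summed to 36164 and 32437, against 24151 in whole testis, and Leydig markers (4 genes) to 7725 and 4049, against 2871 there. Peritubular and stromal markers (8 genes) summed to 31344 and 15870, and vascular ones (4 genes) to 1086 and 462. Macrophage and blood markers (8 genes) went the other way, from 925 to 1794, with the leukocyte gene Ptprc and the haemoglobin gene Hba-a1 below the floor in both. The spermatid markers Prm1, Prm2, Tnp1 and Tnp2 were below the floor in both fractions. How far these shares of other cells enter the differences given here was not tested, and fewer cells of a type and less RNA per cell cannot be told apart. On the first design 59.7% of probe sets were above the floor in spermatogonia and 58.7% in leptotene/zygotene. On the second these shares were 48.5% and 50.5%, a level largely set by its floor, which was the median signal of its arrays. The 3′ probe set for 18S ribosomal RNA had 2174 and 1801 on the first design and 2716 and 1814 on the second. Its 5′ and middle probe sets differed more, by -0.84 and -0.77 on the log2 scale on the first design. On the second they differed by -0.90 and -0.96.

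The only features with 2 arrays per group were the 100 probe sets common to both designs. Their log2 differences on the designs correlated across probe sets with r = 0.77, which describes probe sets, not independent replicates, and the error of a single log2 difference was 0.18, with a 95% limit of 0.35. Tested with limma across all 10 arrays, 5 were higher (5%) and 5 lower (5%) in leptotene/zygotene (adjusted p under 0.05, Benjamini-Hochberg). The largest difference among them was that of Ddx24, an RNA helicase gene, at 0.77 ± 0.18 (SE, n = 2, limma adjusted p = 0.0082). Smim7, a small membrane protein gene, differed by -0.73 ± 0.17 (SE, n = 2, limma adjusted p = 0.0082). At an unadjusted p under 0.05 the counts were 11 higher and 13 lower. With the arrays left unscaled or quantile normalised, limma called 0 in each direction at the adjusted threshold, and leaving out 1 array of the 4 left between 0 and 2 in each direction. With the replicate number, which marks the array design, as a replicate block, limma called 7 higher and 7 lower. Zranb1, a deubiquitinase gene, was among the added calls (0.50, adjusted p = 0.063 without the block and 0.031 with it). The labels do not say whether the samples of a group were prepared separately, so this spread may be technical. Different probe sets of the same gene repeated less well: over 1575 genes read on both designs r was 0.38 and the error of a difference 0.43.

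**Figure D1:**
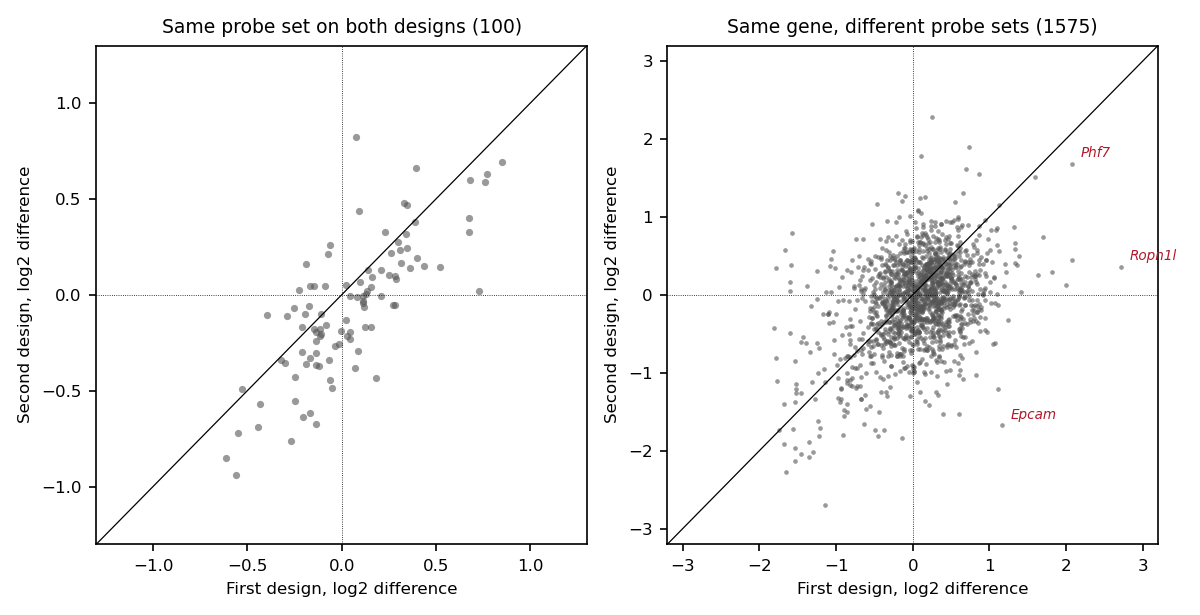
Log2 difference of leptotene/zygotene minus spermatogonia on the first design (x axis) and the second (y axis), with the identity line; each point is a probe set on both designs (left, 100) or a gene read by different probe sets (right, 1575). The left cloud follows the line (r = 0.77) and the right one is rounder (r = 0.38), with Phf7 high on both axes and Epcam on opposite sides of zero.

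Direction was kept more often than size between different probe sets. As background, the measured probe sets of the second design had a median log2 difference of 0.02, and 92.0% of them lay within 2-fold. Of 39 genes at least 2-fold higher on the first design, 31 were higher on the second and 3 were at least 2-fold higher there: Phf7, Psmc3ip and Fyttd1. Of 61 genes at least 2-fold lower, 47 were lower on the second and 25 were at least 2-fold lower. Among those 25 were Pdgfra, a receptor of mesenchymal cells (-1.20 and -1.71 on the log2 scale), the fibrillin gene Fbn2 (-1.74 and -1.74) and Lmna, the A-type nuclear lamin (-1.35 and -2.09).

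The fractions were close to each other. Of the measured genes 91.8% lay within 2-fold and the median log2 difference was 0.02. A signal at least 4-fold higher in leptotene/zygotene was read for 40 genes (0.31% of those measured), and 36 genes (0.279%) were lower by that much. At 2-fold the counts were 441 higher (3.41%) and 617 lower (4.78%), a split that became 654 higher and 536 lower when the deposited values were left unscaled. The 4-fold counts depended on the floor: 17 higher and 15 lower genes reached 4-fold when the floor was added to each signal as a pseudocount. Of the 40 higher genes 17 were below the floor in spermatogonia, so that their fold is a lower bound, and 7 carry only clone names. Of the 36 lower genes 7 were below the floor in leptotene/zygotene. Another probe set was measured for 11 of the 40 higher genes, and at least 1 such probe set reached 2-fold in the same direction for 5 of them (Ldhc, Phf7, Lyz1, Rimklb and a gene with a clone name). For the lower genes these counts were 18 and 16.

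**Figure D2:**
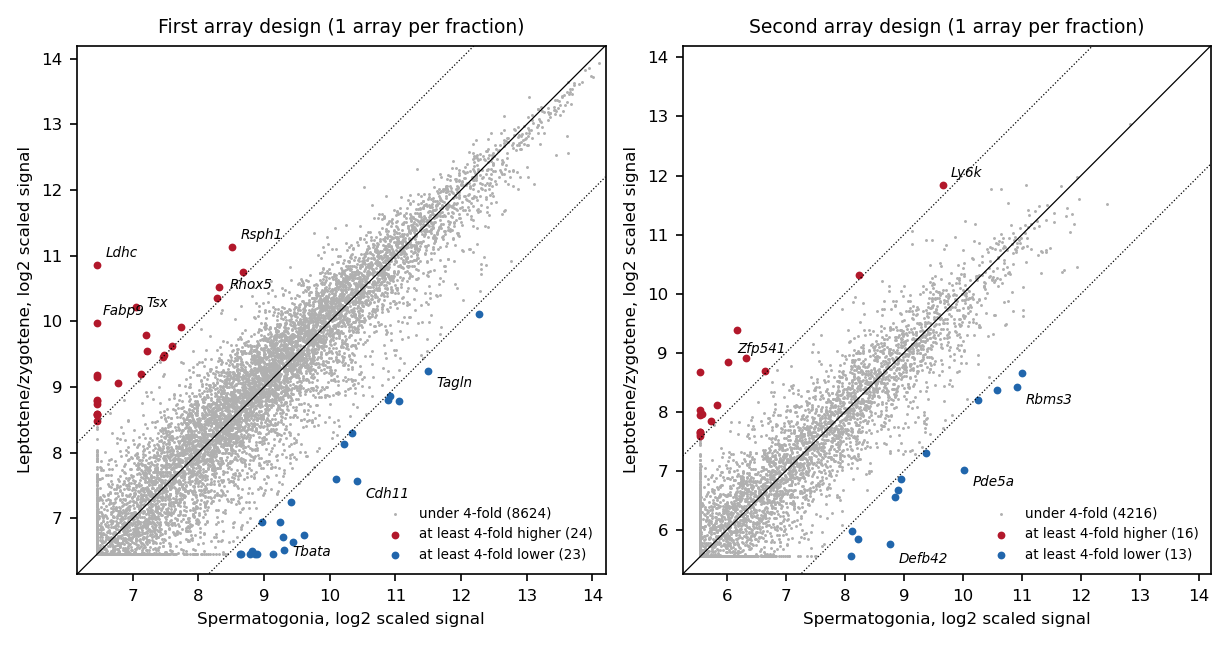
Scaled signal in leptotene/zygotene (y axis, log2) against spermatogonia (x axis, log2) for every measured gene, by array design, with lines at no difference (solid) and at 4-fold (dotted). Points on the lower and left borders lie at the floor; 24 genes of the first design and 16 of the second are at least 4-fold higher, and 23 and 13 lower.

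The genes of the higher group were mostly low in the somatic mix and reached higher signals in pachytene. On the first design the medians of its 24 genes were 121 in spermatogonia, 711 in leptotene/zygotene, 3463 in pachytene, 2346 in whole testis and 39.2 in the somatic mix. On the second design the 16 genes had medians of 50.5, 269, 4431, 1724 and 21.3 in the same order. In the somatic mix 13 of the 40 were above the floor, against 89.7% of all measured genes. The pachytene arrays were no part of the comparison, and these levels are given beside it only. Pachytene markers fixed for the cell type check summed to 716 in spermatogonia and 1669 in leptotene/zygotene over 6 genes, against 29038 in pachytene. Hspa2 alone gave 534 and 901 of the sums in the 2 fractions. Pgk2, Clgn, Ybx2, Crisp2 and Acr were below the floor in spermatogonia, and Pgk2 was below it in leptotene/zygotene too.

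**Figure D3:**
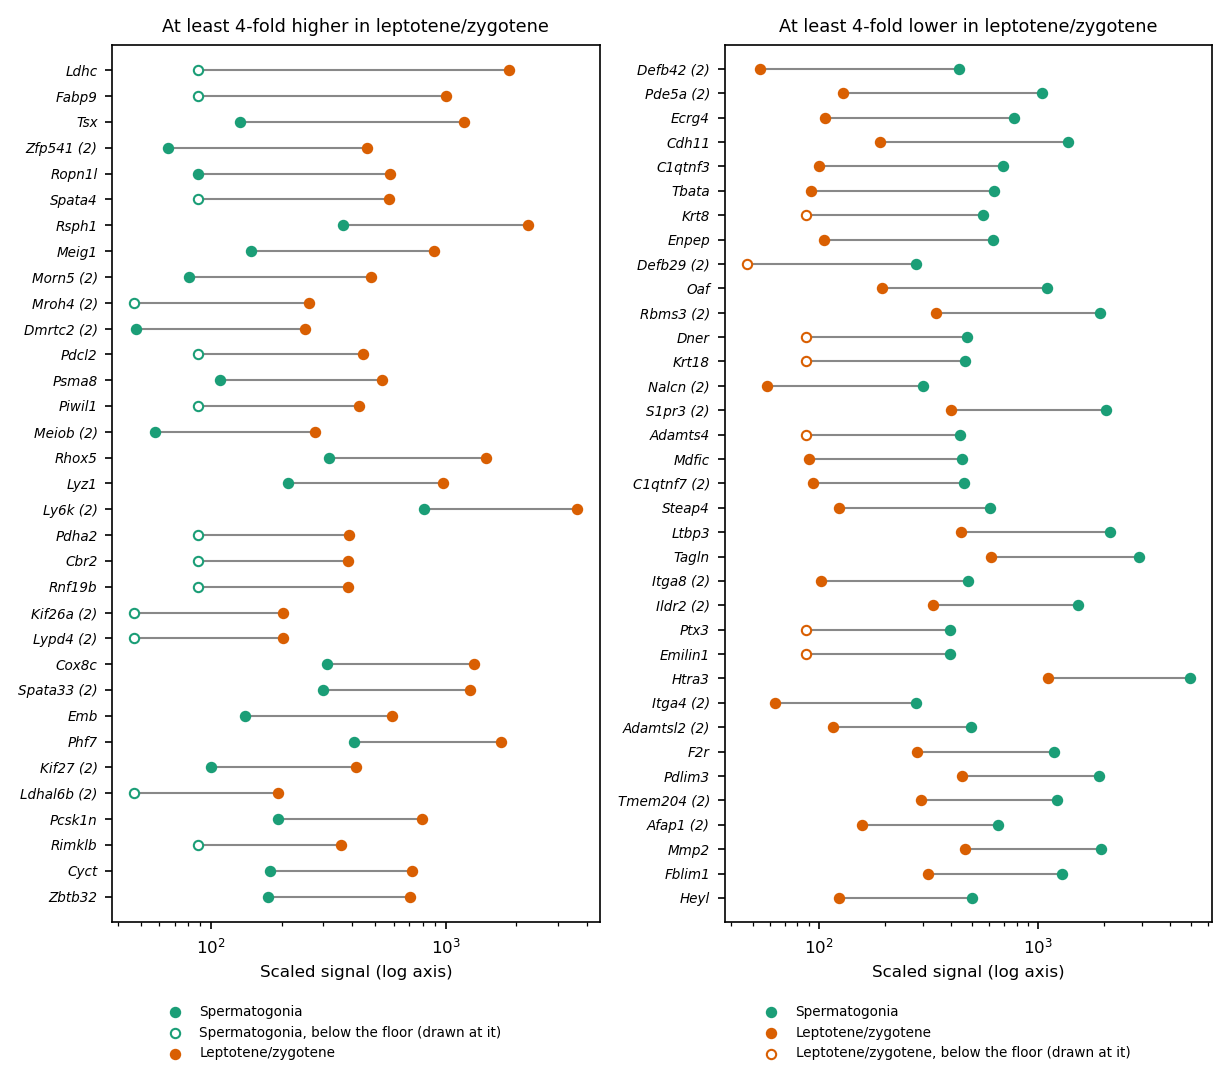
Scaled signal (log axis) in spermatogonia (green) and leptotene/zygotene (orange), 1 array each, for the named genes at least 4-fold higher (left) or lower (right) in leptotene/zygotene, ordered by size; open circles are signals below the floor, drawn at it, and (2) marks the second design. Ldhc has the widest gap on the left and Defb42 on the right.

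Promoter windows of the higher genes were examined because these genes were higher together. RefSeq windows of 300 bases, from 250 before to 50 after a start on GRCm38.p6, were found for 33 of the 40 genes. The 4 windows printed here were chosen because they show the searched motifs close to the starts of a metabolic gene, a gene of sperm development, a piRNA gene and a stage marker. They lie at chr7:46861013-46861312 (Ldhc, plus strand), chr5:76331107-76331406 (Pdcl2, minus strand), chr5:128735996-128736295 (Piwil1, plus strand), chr3:102936051-102936350 (Sycp1, minus strand). All are written 5′ to 3′ along the gene, with motif matches in capitals.
Ldhc: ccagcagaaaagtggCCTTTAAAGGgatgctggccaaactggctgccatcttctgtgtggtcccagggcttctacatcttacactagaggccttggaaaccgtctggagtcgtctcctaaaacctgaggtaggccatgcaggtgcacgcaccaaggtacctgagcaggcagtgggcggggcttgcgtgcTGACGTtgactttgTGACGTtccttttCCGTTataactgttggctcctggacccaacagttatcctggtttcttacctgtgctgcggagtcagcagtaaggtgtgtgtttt
Pdcl2: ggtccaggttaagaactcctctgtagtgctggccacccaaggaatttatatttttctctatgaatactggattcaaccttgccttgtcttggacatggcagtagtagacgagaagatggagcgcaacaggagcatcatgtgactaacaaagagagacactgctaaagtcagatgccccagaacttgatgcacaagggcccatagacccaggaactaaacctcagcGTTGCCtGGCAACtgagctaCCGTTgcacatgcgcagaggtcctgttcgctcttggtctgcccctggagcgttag
Piwil1: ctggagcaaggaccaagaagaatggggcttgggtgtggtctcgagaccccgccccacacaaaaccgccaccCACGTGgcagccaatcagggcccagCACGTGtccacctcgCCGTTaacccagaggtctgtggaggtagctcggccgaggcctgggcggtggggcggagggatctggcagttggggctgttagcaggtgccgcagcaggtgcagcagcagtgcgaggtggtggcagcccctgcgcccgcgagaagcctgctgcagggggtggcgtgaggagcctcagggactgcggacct
Sycp1: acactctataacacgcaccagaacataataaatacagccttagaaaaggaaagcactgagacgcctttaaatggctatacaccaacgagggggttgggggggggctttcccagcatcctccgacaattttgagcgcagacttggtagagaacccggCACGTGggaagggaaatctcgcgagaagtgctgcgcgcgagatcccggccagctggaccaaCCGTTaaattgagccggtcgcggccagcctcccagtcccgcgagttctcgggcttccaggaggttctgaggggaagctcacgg
The motifs searched, on both strands, were AACGG (the core bound by MYB factors), GTTGCC (an arm of the X-box bound by RFX factors), CACGTG (an E-box), TGACGT and TGACGTCA (sites of the CREB and CREM family, the longer containing the shorter), TTCCCGC (an E2F site) and the CArG box. In Ldhc, TGACGT matches began 61 and 47 bases before the start and an AACGG match 34 bases before it. The table holds another Ldhc window, for a start further downstream (chr7:46861237-46861536), with none of the motifs. In Pdcl2, GTTGCC matches on opposite strands began 25 and 18 bases before the start, 1 base apart, with AACGG 5 bases before it. Piwil1 had CACGTG 179 and 154 bases before its start and AACGG 139 bases before it, and Sycp1 had CACGTG at 94 and AACGG at 33 bases. The Dmc1 window held none of these motifs.

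AACGG was present in 43.2% of the 37 windows of genes at least 4-fold higher, in 15.6% of the 32 windows of genes at least 4-fold lower, in 22.6% of the windows of all measured genes and in 17.4% of all 32851 windows. GTTGCC was present in 29.7%, 6.25%, 12.7% and 12.5% of the same sets. At 2-fold, AACGG was in 31.3% of 450 windows of higher genes and 14.1% of 603 windows of lower genes. GTTGCC was in 15.1% and 11.8% of these. The other motifs stood in few of the 37 windows: CACGTG in 3 (7.15% of all windows), TGACGT in 2 (7.51%), the CArG box in 2 (1.63%), TTCCCGC in 1 (4.60%) and TGACGTCA in 0 (1.79%). A match is a description of the letters in a window and not a binding site. Both Dmrtc2 and Lypd4, which are at least 4-fold higher, start head to head on chromosome 7 with 366 bases between their starts, so their windows share 135 bases. The GTTGCC match of the Lypd4 window lies in this stretch and is also among the matches of the Dmrtc2 window. Both windows are counted in the 29.7%.

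Genes of the sperm tail and its assembly were among the largest differences above the floor. Rsph1, a radial spoke protein of the axoneme, had 365 in spermatogonia and 2244 in leptotene/zygotene (6.16-fold). Ropn1l, a ropporin-like protein of the fibrous sheath and radial spokes, had 87.9 and 580 (6.59-fold), though a probe set on the second design gave 81.1 and 104. Meig1, which is needed to build the sperm tail, had 148 and 891 (6.03-fold), and Morn5, a MORN repeat protein, had 80.5 and 480 (5.96-fold). These 4 made up the 4-fold calls among 43 measured genes of flagella and cilia, 10 of them above the floor in 1 fraction only. In that list 9 genes were at least 2-fold higher, 0 lower, and the median was 0.43 against 0.02 for all genes. The others were Dynlrb2 (1.62), Dnah8 (1.25), Morn1 (1.01) and, against the floor, Ccdc39 (at least 3.78-fold) and Zmynd10 (at least 2.27-fold). The smallest differences included those of Cfap45, Tekt3 and Spef1, which encode further axonemal proteins, at 0.06, 0.08 and 0.13. Kif27, a kinesin of ciliated cells that is no member of that list, was 4.13-fold higher.

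In energy metabolism the germ cell forms of several enzymes were among the higher genes. Pdha2, the autosomal germ cell copy of the pyruvate dehydrogenase subunit, had 59.0, below the floor, and 387, at least 4.41-fold higher, while its X-linked parent Pdha1 had 994 and 512 (log2 -0.96). Ldhal6b, another lactate dehydrogenase-like gene, had 6.82, below the floor, and 193, at least 4.11-fold higher. Ldha, the somatic enzyme, had 2606 and 1617 (log2 -0.69). Cox8c, the testis form of a cytochrome oxidase subunit, had 311 and 1317 (4.23-fold; 205 and 280 on a second-design probe set), and Cyct, testis cytochrome c, had 178 and 720 (4.05-fold). Of 20 measured glycolysis and lactate genes only Ldhc was at least 2-fold higher and only Tpi1, triose phosphate isomerase, at least 2-fold lower (1951 and 839), shares near the 3.41% and 4.78% of all measured genes. The list's median was -0.22. Fabp9, which binds fatty acids in the germ line, had 34.8, below the floor, and 1007, at least 11.5-fold higher. Among 12 measured autosomal retrogenes 2 were at least 2-fold higher, Pdha2 and Rbmxl2 (at least 2.97-fold), against 3.41% of all measured genes. The median of the 12 was 0.22.

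In the list of the synaptonemal complex and its axes 8 of the 12 that were measured reached 2-fold upward and 0 downward, with a median of 1.20. After Sycp1, the largest differences were those of Syce3, a central element protein (667 and 1916, log2 1.52), and Sycp2, an axis protein (713 and 1919, log2 1.43). Sycp3, the other main axis protein, had 1216 and 2828 (log2 1.22), and Hormad1, which marks unpaired axes, had 80.6, below the floor, and 205, at least 2.34-fold higher. Skp1, a ubiquitin ligase subunit that also works in somatic cells, had the smallest difference, 0.20. Among the 3 measured meiotic cohesin genes Smc1b (278 and 755, log2 1.44) and Stag3 (640 and 1420, log2 1.15) were at least 2-fold higher and Rec8 was at 0.61. The cohesin genes of all dividing cells had a median of 0.39 (0.21 on the second design alone), with 2 of 13 at least 2-fold higher. These were Esco2, a cohesin acetyltransferase (1.21), and Pds5a (1.04), for which a second-design probe set gave -0.15.

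Most recombination genes stayed within 2-fold, but the shares at least 2-fold higher exceeded the 3.41% of all measured genes. Of 8 measured genes of break formation 2 were at least 2-fold higher: Rec114, a partner of the break machinery (304 and 738, log2 1.28), and Spo11, the enzyme that cuts (107 and 224, log2 1.07). Prdm9, which chooses the sites, was at 0.18, with signals of 119 and 134. In strand exchange 5 of 23 were at least 2-fold higher and 1, Meiob, at least 4-fold, with a median of 0.84. Psmc3ip, the Dmc1 cofactor also named Hop2, had 291 and 876 (log2 1.59 on the first design and 1.52 on the second). Rad54b, a DNA translocase, was at least 2.61-fold higher. Mnd1, the partner of Psmc3ip, was at 0.84 and Sfr1 at -0.04. In the crossover and mismatch repair list 3 of 10 were at least 2-fold higher, with a median of 0.68. Those were Ccnb1ip1, which regulates crossing over (1.27), Tex11, an X-linked crossover gene (1.25), and Msh6, a mismatch repair gene (1.07).

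The telomere tether of early meiosis held Terb1 (282 and 925, log2 1.71), Spdya (111 and 325, log2 1.55) and Majin (194 and 449, log2 1.21) at least 2-fold higher. Lmna was the only member of that list at least 2-fold lower, with 871 and 340 (log2 -1.35). The list's 10 measured members had a median of 0.60, which was 0.057 on the first design alone and 0.29 when a gene's probe sets were averaged. Lmnb1 and Sun2, which also serve somatic nuclei, were at -0.35 and -0.07.

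Germ granule and piRNA genes, which silence transposons in the germ line, had 6 of 20 measured members at least 2-fold higher and 0 lower, with a median of 0.85. Piwil1, the PIWI protein of spermatocytes, had 45.7, below the floor, and 427, at least 4.87-fold higher. Tdrd12 and Mov10l1, which act in piRNA production, were both at 1.29, Asz1 at 1.17, Mael at 1.10 and Tdrd9 at 1.06. Piwil2 had 568 and 1135, a log2 difference just under 2-fold. Tdrd3 and Henmt1 were at 0.06 and 0.10. Psma8, the proteasome subunit of spermatocytes, which is no member of that list, had 109 and 536 (4.92-fold).

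Among 19 measured transcription factors of spermatocytes 8 were at least 2-fold higher, 1 of them 4-fold, and the median was 0.82. Zfp541, a chromatin regulator of the pachytene program, had 65.4 and 461 (7.06-fold). Hsf5, a heat shock factor of spermatocytes, had 111 and 309 (log2 1.48), and the X-linked Taf7l, a subunit of the TFIID complex, had 1083 and 2735 (log2 1.34). Tcfl5 was at 1.23, Morc2b against the floor at 1.35, and Taf4b at 1.11. Tbpl1, which forms an alternative to TBP, was at 1.07, but its second-design probe set gave -0.10. Mybl1, which encodes A-MYB, had 106 and 143 (log2 0.43), and Rfx1, an X-box factor, was at 0.28. Crem was lower, with 369 and 205 (log2 -0.85). Outside the list, the transcription regulator genes Phf7, Dmrtc2 and Zbtb32 were at least 4-fold higher. Phf7, a PHD finger protein of the male germ line, had 408 and 1721 on the first design (4.22-fold) and 344 and 1105 on the second (log2 1.68). Dmrtc2, a DM-domain factor of pachytene, had 47.8 and 251 (5.25-fold), its first signal lying just above the floor of 47.0. Zbtb32 had 175 and 701, at the 4-fold threshold, and a second-design probe set gave 99.1 and 108.

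In the list of regulators of spermatogonial differentiation and meiotic entry 8 of 17 members passed 2-fold upward and 0 downward, with a median of 0.95. The largest differences were those of Dmrtb1, which coordinates the switch from mitosis to meiosis (218 and 661, log2 1.60), Meioc (321 and 810, log2 1.34), Rhox13 (1423 and 3492, log2 1.30) and Ythdc2, the RNA helicase partner of Meioc (126 and 305, log2 1.28). Dazl, an RNA-binding protein of germ cells, had 1597 and 3514 (log2 1.14). Stra8 had 2081 and 3295 (log2 0.66) and Kit, the receptor of differentiating spermatogonia, 416 and 748 (log2 0.85). Ccnd2, a cyclin of spermatogonia, was the member below 0, with 3789 and 1936 (log2 -0.97). In the stem and progenitor list 2 of 20 were at least 2-fold higher and 0 lower, with a median of 0.07. These 2 were Id4 (362 and 795, log2 1.14) and Utf1 (92.0 and 217, log2 1.24). Other Id4 probe sets read 0.70 and 0.37, and Utf1 read -0.33 on the second design. Gfra1, the receptor for the niche factor Gdnf, had 172 and 168, and the integrin Itga6 1176 and 679 (log2 -0.79). Of 13 measured retinoid genes only Crabp1, which binds retinoic acid, was at least 2-fold higher (535 and 1257, log2 1.23), and 0 were lower. For comparison with these 3 lists, 3.41% of all measured genes were at least 2-fold higher and 4.78% lower.

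Most cell division genes stayed within 2-fold, but the shares at least 2-fold higher exceeded that of all measured genes. Of 36 measured replication genes 5 were at least 2-fold higher, against 3.41% of all measured genes, and 0 lower. Their median was 0.62, and 0.29 on the second design alone. They were Cdc6 (242 and 632, log2 1.39), Rfc4 (1.22), Mcm2 (1.16), Rrm2 (1.10) and Mcm5 (1.01), and Rrm1 was at 0.04. Of 33 mitosis genes 5 were at least 2-fold higher, with a median of 0.63: Fbxo5, an inhibitor of the anaphase promoting complex (1.24), Ccne2 (1.14), Kif20a (1.11), Bub1 (1.05) and Ttk (1.02). Ccnd3 was the member at least 2-fold lower, at -1.08, and its second-design probe set gave 0.37. Cdk1 had 1123 and 1257.

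**Figure D4:**
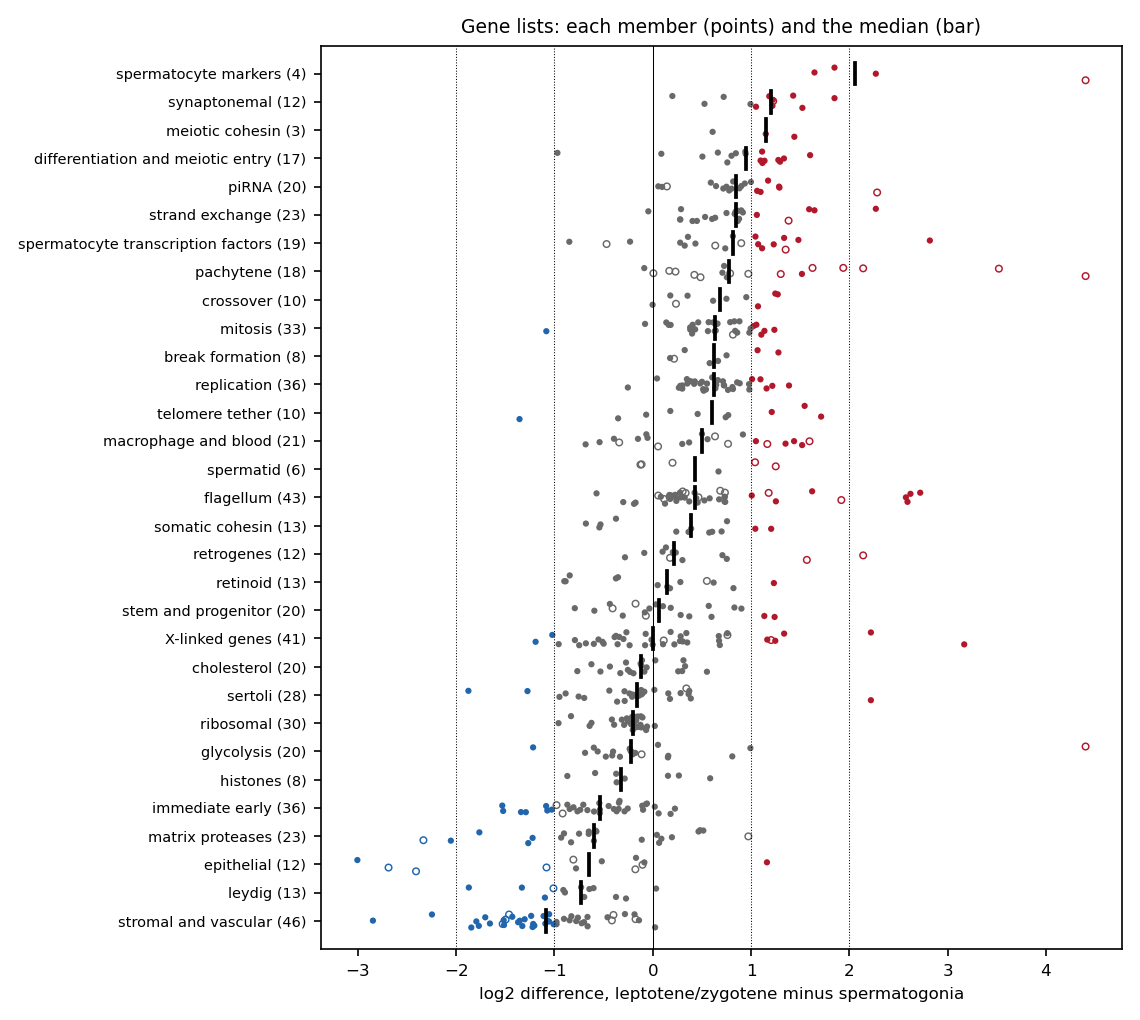
Log2 difference of leptotene/zygotene minus spermatogonia for every measured member (points) of each of the 31 gene lists, with the list median as a bar and the number of measured members in brackets; red and blue points are at least 2-fold higher or lower, open points were below the floor in 1 fraction, and dotted lines mark 2-fold and 4-fold. Lists of meiosis lie right of zero (synaptonemal median 1.20) and stromal, Leydig and epithelial lists left of it (stromal median -1.08, and -0.40 on the second design alone).

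Genes of pachytene and later stages were split by whether they were readable at all. Of 26 pachytene genes on the arrays 18 were measured, 13 of them above the floor in 1 fraction only. At least 2-fold higher were 7, of which Ldhc, Fabp9 and Pdha2 were past 4-fold, and the median was 0.77. Clgn, a chaperone of the germ cell endoplasmic reticulum, had 75.1, below the floor, and 336, at least 3.83-fold higher. Tex101, a germ cell surface protein, had 1473 and 4221 (log2 1.52). Ly6k, its binding partner of the same family, had 807 and 3643 (4.51-fold), though another probe set gave 56.1 and 68.1. Of 21 spermatid genes on the arrays 15 were below the floor in both fractions. Of the other 6, Spaca1 (at least 2.38-fold) and Oaz3 (at least 2.06-fold) were at least 2-fold higher, both against the floor, and 0 were lower. Of the 6, 5 were above the floor in 1 fraction only, so the sign of their difference follows from which fraction that was. The median of the 6 was 0.43, and -0.074 when probe sets with a letter suffix (such as "_a_at" or "_x_at") were left out. Outside these lists, Spata4 had 15.6, below the floor, and 571, at least 6.52-fold higher, and Pdcl2, a phosducin-like protein of spermatids, had 4.92, below the floor, and 444, at least 5.07-fold higher.

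**Figure D5:**
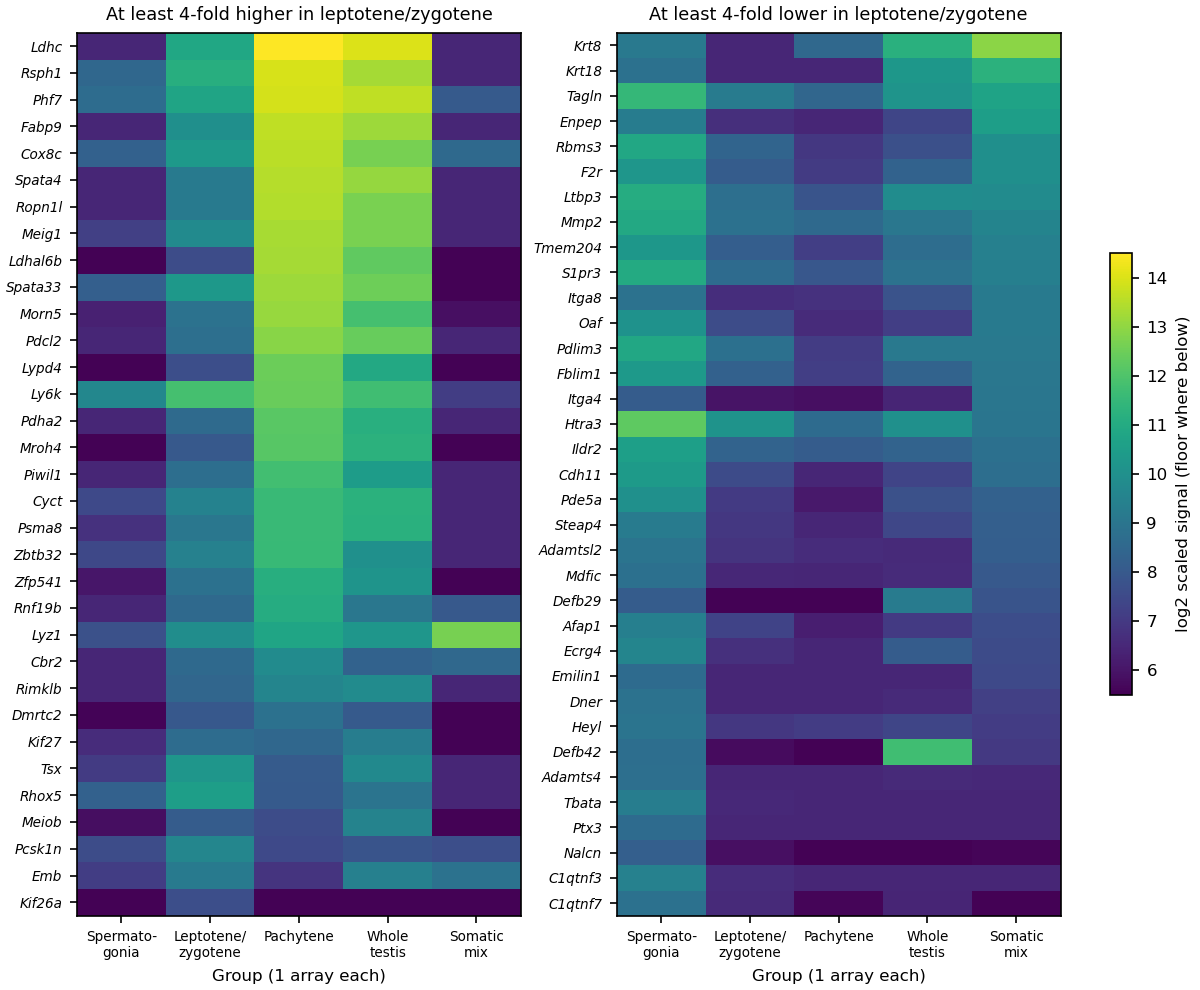
Scaled signal (colour, log2, set to the floor where below it) of the named genes at least 4-fold higher (left) or lower (right) in leptotene/zygotene, in each of the 5 groups with 1 array per group and design. Most rows on the left are brightest in pachytene (Ldhc 23494), while Tsx, Rhox5, Pcsk1n and Kif26a are brightest in leptotene/zygotene, Meiob, Emb, Kif27 and Rimklb in whole testis and Lyz1 in the somatic mix.

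The X chromosome held differences in both directions. Of 445 measured X-linked genes, the higher ones past 2-fold numbered 27 (6.07%) and the lower ones 32 (7.19%), against 3.30% and 4.70% of 12384 autosomal genes. The median of X-linked genes was -0.09, and that of each of the 19 autosomes lay between -0.03 and 0.07. At least 4-fold higher were Tsx (133 and 1195, 8.99-fold), Rhox5, a homeobox gene best known from Sertoli cells (318 and 1479, 4.66-fold), and Pcsk1n (193 and 790, 4.09-fold). Among the other higher genes were Nxf3 (562 and 1832, log2 1.70), Mageb16 (396 and 1190, log2 1.59), Fmr1nb (867 and 2594, log2 1.58) and Tex13b (487 and 1210, log2 1.31), which are expressed in germ cells. Their pachytene signals were 216, 234, 211 and 135. The lower X-linked genes included the matrix genes Bgn (5013 and 1405, log2 -1.83), Gpc3 (-1.88) and Col4a5 (-1.43), the actin crosslinker Flna (-1.41) and Armcx3 (-1.71). The broadly expressed X-linked genes Pgk1 and Rps4x were at -0.60 and -0.79 and Hprt at 0.31.

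The genes at least 4-fold lower in leptotene/zygotene included matrix, smooth muscle and epithelial genes. They held 3 of 12 measured members of the epithelial list, 2 of 46 of the stromal and 2 of 23 of the matrix protease list. Of all measured genes 0.279% were lower by that much. Of the 12 epithelial members 6 were above the floor in 1 fraction only. Above the floor in the somatic mix were 32 of the 36, a share close to the 89.7% of all measured genes, and 20 were above it in pachytene, against 82.5% of all measured genes. Cdh11, a cadherin of mesenchymal cells, had 1367 and 190 (7.19-fold lower). Tagln, an actin-binding protein of smooth muscle, had 2886 and 609 (4.74-fold lower). Mmp2, a matrix metalloprotease, had 1931 and 465 on its main probe set and 1855 and 293 on another (log2 -2.05 and -2.66). Htra3, a secreted protease, had 4935 and 1113 (4.44-fold lower), but other probe sets read -1.02, against the floor, and -0.40 on the log2 scale. Adamts4, which cleaves aggrecan, had 441 and 65.5, the latter below the floor, at least 5.04-fold lower. Signalling genes were in the same group. Pde5a, the cGMP phosphodiesterase of smooth muscle, had 1040 and 130 (8.01-fold lower), and its 2 other probe sets read -2.16 and -1.06 on the log2 scale. S1pr3, a sphingosine phosphate receptor, had 2048 and 402 (5.09-fold lower), and F2r, the thrombin receptor, had 1186 and 281 (4.22-fold lower). Heyl, a target of Notch, had 503 and 124 (4.07-fold lower). Ecrg4, a secreted peptide precursor, had 777 and 107 on the first design and 618 and 33.8 on the second, the last below the floor.

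Tbata, a thymus and testis gene, had 631 and 92.1 (6.86-fold lower), and its 3 other probe sets ran from -2.61 to -1.17 on the log2 scale. C1qtnf3 and Oaf, which encode secreted proteins, were 6.94-fold and 5.67-fold lower, Rbms3, an RNA-binding protein, 5.64-fold, and the aminopeptidase Enpep 5.93-fold. Ildr2 was 4.57-fold lower on its main probe set (1520 and 333), whereas another read 73.3 and 75.6. Epithelial genes were among those at the floor in leptotene/zygotene. Krt8, a keratin of simple epithelia, had 564 and 56.6, at least 6.44-fold lower, and its partner Krt18 had 465 and 54.6, at least 5.31-fold lower. The epididymal defensin genes Defb42 and Defb29 had 436 and 54.3 (8.02-fold lower) and 277 and 12.3 (at least 5.89-fold lower). Whole testis read 3454 for Defb42 and 2353 for Krt8, above both fractions. Epcam, another epithelial gene that germ cells also express, read 1.16 on the first design and -1.68 on the second.

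Gene lists of somatic testis cells differed to unequal degrees. Of all measured genes 4.78% were at least 2-fold lower and 3.41% higher. In the stromal and vascular list 27 of 46 members were at least 2-fold lower and 0 higher, with a median of -1.08, which was -0.40 on the second design alone. Next to Cdh11 and Tagln these were led by the smooth muscle genes Tpm2 (6926 and 1928, log2 -1.85) and Myh11 (2252 and 661, log2 -1.77), the caveolin Cav1 (-1.79) and the laminin Lama2 (-1.70). Collagen VI genes Col6a1 and Col6a2 were at -1.37 and -1.51, while Col1a1, Dcn and Sparc were at -0.46, -0.18 and -0.28. In the Leydig list 4 of 13 were at least 2-fold lower, with a median of -0.73 (-1.14 on the second design alone): Thbs2 (-1.87), Ptgds (-1.33), the steroid enzyme Hsd3b1 (3242 and 1516, log2 -1.10) and, against the floor, Akr1c14 (-1.01). Cyp17a1 had 3413 and 1838 (log2 -0.89). In the Sertoli list only Gdnf, the niche factor for stem cells (331 and 90.2, log2 -1.87), and Hsd17b1 (-1.27) were at least 2-fold lower, and Rhox5 was higher. The median of its 28 members was -0.16, and Sox9 and Cst12 were at -0.12 and 0.02. Matrix proteases and their inhibitors had 5 of 23 at least 2-fold lower and 0 higher, with a median of -0.60.

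Of 21 measured macrophage and blood genes 6 were at least 2-fold higher and 0 lower, against 3.41% and 4.78% of all measured genes. Of the 21, 6 were above the floor in 1 fraction only. The median of the 21 was 0.50, which was 0.26 on the second design alone and 0.24 with the floor at the 60th percentile. Lyz2, a lysozyme of macrophages, had 158 and 454 (log2 1.52), and Mrc1 and Csf1r, receptors of tissue macrophages, were at 1.44 and 1.05. C1qa, a complement subunit, had 6.46, below the floor, and 265, at least 3.02-fold higher. Lyz1, a lysozyme close in sequence to Lyz2 and read here by a probe set open to cross-hybridisation, had 212 and 969 (4.57-fold), and 6507 in the somatic mix. Cd14 was at -0.68, and Laptm5 at -0.06.

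Immediate-early and stress genes, which respond within minutes to growth factors or injury, had 7 of 36 at least 2-fold lower and 0 higher, with a median of -0.54. Of all measured genes 4.78% were at least 2-fold lower and 3.41% higher. Nr4a2, an orphan nuclear receptor, had 292 and 101 (log2 -1.53, and -1.37 on the second design). Ccn2 and Ccn1, matricellular proteins, had 5313 and 1851 (-1.52) and 3853 and 1522 (-1.34), and Ier5, Egr3, Maff and Btg2 ran from -1.29 to -1.03. Fos and Egr1 had 11645 and 9032 (-0.37) and 12019 and 9455 (-0.35). Within 2-fold, where 91.8% of all measured genes lay, were all 30 measured ribosomal protein genes, with a median of -0.20, all 20 cholesterol synthesis and uptake genes (median -0.12, and -0.48 on the second design alone) and all 8 measured histone genes (median -0.33, and -0.12 on the second design alone). Rps29 and Rps25 were at -0.06 and 0.02.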

How the data were processed

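The authors deposited intensity values, 1 linear signal per probe set and array, for an Affymetrix design (22690 probe sets) and its companion (22575), read with GCOS 1 per the submitters' processing notes; neither a scaling target nor detection calls are stated there. Biotin-labelled cRNA was hybridised, and the numbers of replicates 1 and 2 mark the array design. Probe sets were named from the platform annotation, updated to RefSeq symbols (GRCm38.p6). On the first design 20380 named a single gene, 691 several and 1555 none, and 20351 of the first kind were matched to RefSeq; on the second the numbers were 14661, 245, 7605 and 14486. Another 64 probe sets of each design were controls.

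Trimmed means (2% off each end) of the deposited signals spanned 383 to 484 (first design) and 63.4 to 148 (second design), and each array was scaled to the mean of its design. Signals were raised to a floor. On the first design this was 87.6, the 90th percentile of 68 chemosensory receptor probe sets. On the second, with 15 such probe sets (under the minimum of 20), it was 47.0, the median signal. A gene was read from its probe set of highest mean log2 signal, on the first design where any was above the floor. Differences are log2 of leptotene/zygotene over spermatogonia, counted at 4-fold and 2-fold. With 1 array per group and design there was no test across genes; their number limits the precision. The 100 probe sets on both designs were tested with limma 3.58.1 in R 4.3.3 over 10 arrays, 5 groups and no covariate, with Benjamini-Hochberg adjustment. Both steps were tested on simulated data. Other steps used Python 3.11.15, numpy 2.4.6 and pandas 2.3.3.

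The members, the 31 gene lists (788 members) and the tests were chosen with earlier results of these data known. Genes named were those past 4-fold with a gene symbol (the 12 largest above the floor each way, the 6 brightest against the floor, those repeated by another probe set), the stage markers, list members past 2-fold (up to 6 each way) and list members of smallest difference; other genes named were chosen after their values were seen. Alternatives were other scalings (quantile, median, none, shared probe sets), floors, a pseudocount, averaging a gene's probe sets, each design alone and a replicate block. A further one left out all probe sets with a letter suffix, such as "_a_at" or "_x_at" ("plain" ones kept).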

Additional observations from a re-analysis of the deposited data

Results flagged for a closer look

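Probe sets that name no gene, or several, entered no comparison above. Of 4575 such probe sets above the floor in either fraction, 10 were at least 4-fold higher in leptotene/zygotene and 3 at least 4-fold lower, together 0.284%. They stood on the first design (3 higher, 1 lower, of 1103) and on the second (7 higher, 2 lower, of 3472). The brightest of the higher ones names the Tcte3 gene cluster, which encodes a dynein light chain of sperm and has near-identical copies, and read 19.2 in spermatogonia, below the floor, 3200 in leptotene/zygotene and 12276 in pachytene. Another probe set of the same cluster read 48.2, also below the floor, and 621. A probe set shared by the GPI-anchored genes Gml and Gml2 read 77.6, below the floor, and 1240. Among the lower ones was a probe set for H19, an imprinted noncoding RNA, together with the microRNA that lies inside it, at 4768 and 1127.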

How the results depend on the processing

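Across 198 named genes, 1575 of 1957 recomputed differences moved by at most 0.18, the error of a log2 difference between shared probe sets, 373 moved further and 9, in 7 genes, changed sign. With plain probe sets only, Ildr2 read 0.043, Oaz3 -0.074, Pds5a -0.15 and Tbpl1 -0.10, each from another probe set. With 1 design left out, the second against the first read 0.37 and -1.08 for Ccnd3, -1.68 and 1.16 for Epcam, -0.15 and 1.04 for Pds5a, -0.10 and 1.07 for Tbpl1, and -0.33 and 1.24 for Utf1. Of the 40 genes at least 4-fold higher, all 40 kept 4-fold with values as deposited and with the lower floor (40th percentile), 35 under quantile normalisation, 29 when scaled to the shared probe sets, 32 by the mean over probe sets, and 16 with the 60th percentile as floor and with the floor as a pseudocount. In all, 17 genes were at least 4-fold higher under each of these last 2 settings. Under the pseudocount 15 were at least 4-fold lower, and the 2-fold counts were 241 and 398. With either design alone, which leaves fewer genes, between 20 and 24 genes were at least 4-fold higher, 23 to 24 lower, 241 to 246 at least 2-fold higher and 326 to 424 lower. Leaving the values unscaled shifted the median of genes above the floor in both fractions by 0.11.

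Among the list medians on the log2 scale, the pseudocount gave 1.60 for the leptotene/zygotene markers, 0.99 for the synaptonemal complex and -0.40 for matrix proteases. The mean over probe sets gave 0.64 for strand exchange, 0.29 for the telomere tether and 0.20 for spermatid genes. The 60th percentile floor gave 0.90 for crossover, -0.10 for histones, 0.24 for macrophage and blood and -0.91 for epithelial genes. Plain probe sets gave 1.01 for crossover, 0.77 for macrophage and blood and -0.074 for spermatid genes, whose median was 0.18 under quantile normalisation, 0.23 with values as deposited and 0.73 when scaled to the shared probe sets. Values as deposited gave 0.99 for pachytene genes and -0.34 for epithelial genes, which read -0.44 under quantile normalisation. With 1 design left out, the ranges were -0.18 to 0.14 for stem and progenitor genes, 0.21 to 0.38 for somatic cohesin, 0.42 to 0.58 for break formation, 0.057 to 0.61 for the telomere tether, 0.29 to 0.64 for replication, -0.33 to -0.12 for histones, -1.14 to -0.73 for Leydig, -1.08 to -0.40 for stromal, 0.26 to 0.53 for macrophage and blood, -0.77 to -0.54 for immediate-early, -1.68 to -0.65 for epithelial and -0.48 to -0.12 for cholesterol genes. The leptotene/zygotene markers had a value on the first design alone (1.85) and the spermatid genes on the second (0.20); where too few members stood on a design, no value was given. Apart from the change of probe set or design, the causes were not tested.

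Of the 100 shared probe sets, limma called 0 higher and 0 lower with values as deposited (4 and 0 at an unadjusted p under 0.05) and 0 and 0 under quantile normalisation (7 and 2 unadjusted), and 0 to 2 in each direction with 1 array left out, a lone array being assumed to vary like the other groups. With the replicate block 7 were higher and 7 lower, against 5 and 5 without it. The replicate numbers mark the array design, and the deviations of the spermatogonia and leptotene/zygotene arrays from their group means correlated with r = 0.40 over these probe sets, with -0.02 the lowest over the pairs of groups.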

Other observations

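Some genes outside the lists repeated across designs, and they were picked after their values were seen. The Wnt ligand genes Wnt4 and Wnt6 were lower in leptotene/zygotene on the first design (-1.36 and -1.23 on the log2 scale) and on the second (-1.89 and -1.81). Lhx9, a homeobox gene of the early gonad, read -1.77 and -1.10, the mesenchymal homeobox gene Prrx1 -1.68 and -1.40, and Tfpi, an inhibitor of the clotting cascade, -1.56 and -1.72. Zfand3 read 1.11 on the first design and -1.21 on the second. On the Y chromosome Usp9y had 203 in spermatogonia and 426 in leptotene/zygotene, Zfy2 had 47.2, below the floor, and 249, and Eif2s3y had 451 and 437.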
